A study of Adonis amurensis with 6 samples.

Results

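ALFIN-LIKE proteins are a plant family of chromatin readers, and 13 of the 190353 unigenes in the table of Adonis amurensis floral organs carried an ALFIN-LIKE name in their Swiss-Prot annotation. These 13 were taken by name alone, whatever their expression. A unigene is a sequence assembled from the reads without a reference genome, so a gene can be present as several unigenes. The floral organs of plants grown in an open field were sequenced as 6 libraries, 1 for each stage of flower development. The stages are flower bud differentiation (FBD), young alabastrum (YA, a young closed bud) and visible color alabastrum (VCA, a bud that shows its color), which the labels give as flower bud. The open stages, which the labels give as flower, are EFS (early flowering), FBS (full bloom) and SFS (the senescing flower). No treatment or genotype separates the libraries, and how many plants went into each is not given in the sources used here. With 1 library per stage, differences between stages have no replicate error to be set against, and no test was made. Levels are in FPKM, fragments per kilobase of sequence relative to the mapped fragments of the library, which can be compared between unigenes because they are per length. In whole organs, fewer cells of a type and less RNA per cell cannot be told apart.

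An ALFIN-LIKE protein has an Alfin domain at its amino-terminal end and a PHD finger, a small zinc-binding fold, at its carboxy-terminal end. In Arabidopsis, the PHD finger of most members binds histone H3 that carries methyl groups on lysine 4, a mark of active genes. Members of the Arabidopsis family also bind RING proteins of Polycomb repressive complex 1 and help to shut down seed genes after germination, and the alfalfa founder, Alfin1, is known for its part in salt tolerance. VIN3 of the vernalization pathway also has a PHD finger and belongs to another family.

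The name fits 8 of the 13 unigenes closely. These matched ALFIN-LIKE 2, 4 or 5 of Arabidopsis thaliana with e-values at or under 2.5e-103, and the KOG annotation placed all of them in the uncharacterized PHD zinc-finger group. Expressed from YA to SFS were Unigene27250 and Unigene27263 (both ALFIN-LIKE 2), Unigene14364 (ALFIN-LIKE 5) and Unigene30805 (ALFIN-LIKE 4). Expressed in FBD were Unigene154308 (ALFIN-LIKE 2) and 3 contigs of cluster CL6028 (ALFIN-LIKE 4). The numbers are those of the Swiss-Prot match. In Nr, Unigene27250, Unigene27263 and Unigene154308 matched an ALFIN-LIKE 1 or ALFIN-LIKE 1-like protein best.

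The other 5 unigenes matched ALFIN-LIKE 3 of rice with e-values between 1.7e-10 and 7.1e-06. In 4 of them the KOG annotation named BAH domain proteins, and the best Nr match was a polybromo-1 or a BAH and coiled-coil domain protein (CL21157.Contig1 at 1.3e-112). The BAH domain is another module of chromatin proteins, so these 4 carry the ALFIN-LIKE name with a weak match only. They are the 3 contigs of cluster CL21157 and Unigene123085, and they are called BAH unigenes here. Their InterPro entry was a BAH profile for CL21157.Contig3, an unnamed family for CL21157.Contig1, and a PHD finger for CL21157.Contig2 and Unigene123085. The remaining one, Unigene33300, was placed by KOG in the same PHD zinc-finger group as the close matches, but had no InterPro domain. It stayed below an FPKM of 1 in all 6 libraries, with 0.57 in YA, 0.79 in VCA, 0.72 in EFS, 0.14 in SFS and a listed 0 in FBD and FBS.

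The sequences of the unigenes themselves were not analysed here. The study's primers for quantitative PCR are shown because they mark the members whose levels the study measured a second way, and those for CL21157 do not name the contig they read. They are written 5′ to 3′ in lower case, with no part in capitals.
U27250 forward: ttgttttgctttacctgtccgt
U27250 reverse: cgttttatcttgctgctccttt
U27263 forward: ttgttatctttggtgtgctgctc
U27263 reverse: gtctacgaagttgtgactgggaa
CL21157 forward: atctttcttgccaggtctcgtc
CL21157 reverse: attgatacccttcacaccccat
The primers are 22 or 23 bases long, and their lowest GC content is 40.9%. U27250 and U27263 were read as short forms of Unigene27250 and Unigene27263.

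In the whole table, the FPKM summed to between 724656 in SFS and 755345 in VCA. Read numbers are not part of the table, and relative depth, read from unigenes that lay between 0.2 and 2 FPKM in YA and in the other library, was between 0.804 in FBD and 1.15 in EFS, with YA as 1. The value of FBD is less certain, since it rests on 464 such unigenes, with between 15116 and 18158 for VCA to SFS. Depth was read at the most common ratio to YA, where 22 unigenes lay for FBD and 679 for EFS. For VCA, FBS and SFS between 1545 and 1918 lay there, so the value of EFS is also less certain than theirs. Floral organ identity genes by name (39 unigenes) summed to an FPKM of 406 in FBD, 1382 in YA and 714 in SFS, while 3 unigenes of seed storage proteins summed to at most 2.23 in any library. FBD stood apart from the other 5 libraries. Of 101053 unigenes that reached 1 FPKM in FBD or on average in the 5 later libraries, FBD was at least 20-fold above that average in 52.1% and at least 20-fold below it in 46.4%. FBD is therefore given apart from the other 5 stages.

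The 4 closely matched unigenes expressed from YA to SFS were present at every one of these stages, and 3 of them had their highest FPKM in VCA. With the libraries divided by summed actin FPKM, these 3 were highest in SFS instead. Unigene27250, named after Arabidopsis ALFIN-LIKE 2, was the highest of the family from YA to SFS, with an FPKM of 87.6 in YA and 106 in VCA, then 61.3 in EFS, 57.9 in FBS and 59.7 in SFS. As deposited it was highest in the closed buds, YA and VCA, and nearly level in the 3 flower libraries. Division by actin gave 93.4 in VCA, then 48.0 in EFS, 66.1 in FBS and 102.7 in SFS. In VCA it lay above 97.8% of the 51820 unigenes that reached 1 FPKM, and in SFS above 95.3% of 43754.

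Unigene14364 was the second of the family at each of these stages and the only one named after ALFIN-LIKE 5, which in Arabidopsis is known for a part in stress tolerance. Its FPKM was 59.6 in YA and 76.8 in VCA, then 50.5 in EFS, 41.6 in FBS and 53.6 in SFS. It too was highest in VCA, and its lowest value was in FBS rather than in SFS.

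Unigene27263, the other ALFIN-LIKE 2 unigene, had an FPKM of 29.6 in YA and 38.5 in VCA, then 26.2 in EFS, 25.5 in FBS and 21.6 in SFS. Its levels lay below those of Unigene27250 at every stage, with the same highest stage and a different lowest one. Unigene30805, named after ALFIN-LIKE 4, had its highest FPKM in YA, with 37.4, followed by 29.9 in VCA, then 20.8 in EFS, 18.5 in FBS and 17.5 in SFS. It was thus the only one of the 4 whose FPKM was lower at each later stage, an order that was lost when the libraries were divided by their median ratio or by their summed actin FPKM.

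**Figure D1:**
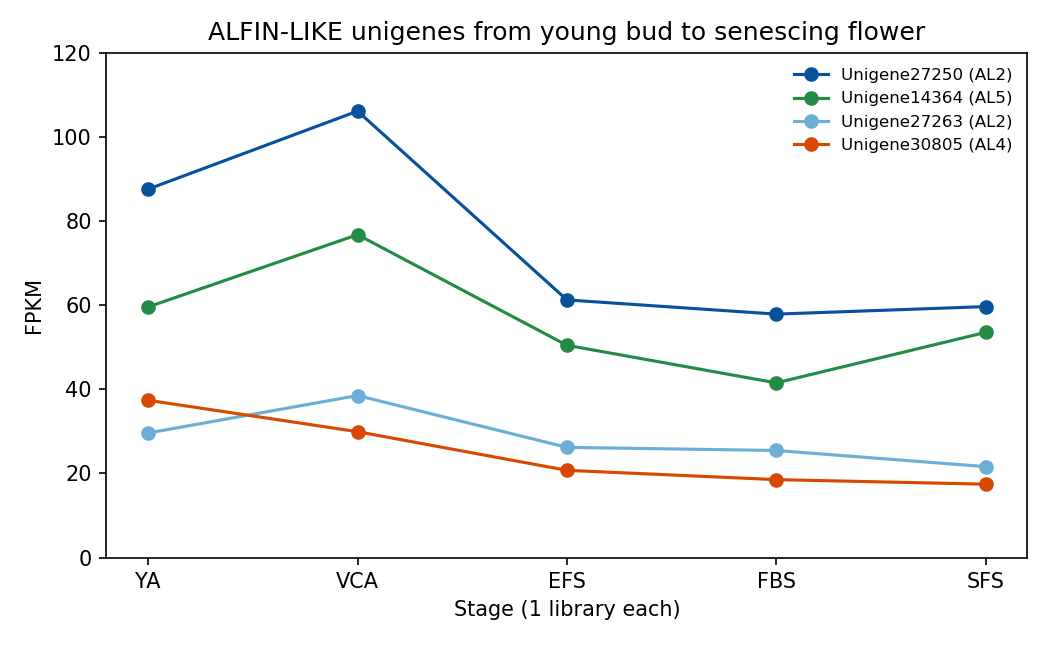
FPKM as deposited of the 4 closely matched ALFIN-LIKE unigenes (vertical axis) in the libraries YA, VCA, EFS, FBS and SFS (horizontal axis), 1 point per library with no error because no stage has a replicate. AL in the key stands for ALFIN-LIKE. Unigene27250, Unigene14364 and Unigene27263 are highest in VCA on this scale (in SFS after division by actin), at 106, 76.8 and 38.5, and Unigene30805 is highest in YA, at 37.4.

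As deposited, the levels of these 4 unigenes were close together across the 5 stages. The highest FPKM was 1.83 times the lowest for Unigene27250, 1.85 times for Unigene14364, 1.78 times for Unigene27263 and 2.14 times for Unigene30805. Of 3953 other unigenes with a Swiss-Prot name, a mean FPKM between 20 and 100 and no listed 0 in these libraries, the median of this fold was 3.63, with quartiles of 2.13 and 9.81. A smaller fold than that of Unigene27263 was found in 15.8% of them, and a smaller fold than that of Unigene30805 in 25.4%. These folds change with the scale. Unigene14364 lay between 39.6 in EFS and 92.2 in SFS after division by actin. With the median-ratio scaling it lay between 42.5 in FBS and 66.2 in VCA. VCA was the stage of the highest deposited FPKM in 25.8% of these 3953 unigenes, more often than any other of the 5 stages.

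The makeup of the family does not depend on how the libraries are scaled, since it is a share within a library. Of the summed FPKM of the 8 closely matched unigenes, Unigene27250 held 40.8% in YA and 42.2% in VCA, then 38.6% in EFS, 40.3% in FBS and 39.2% in SFS. By contrast, the share of Unigene14364 was lowest in YA, at 27.8%, and highest in SFS, at 35.1%. The share of Unigene30805 was 17.4% in YA and between 11.5% and 13.1% in the other 4 stages. Unigene27263 held between 13.8% in YA and 17.7% in FBS. With the stages in order, Unigene30805 (ALFIN-LIKE 4 by name) therefore had its largest part in the young bud, and Unigene14364 (ALFIN-LIKE 5 by name) in the senescing flower. Both unigenes had the same best Nr match and the same KOG match, so only the Swiss-Prot name separates them here.

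Summed over all 13 unigenes, the FPKM was 239 in YA and 268 in VCA, then 172 in EFS, 157 in FBS and 169.75 in SFS. Ordered by level, the stages were VCA, YA, EFS, SFS and FBS. Chlorophyll a-b binding proteins, markers of photosynthetic tissue (80 unigenes), summed to 6047 in YA and 9036 in VCA, then 6357 in EFS, 2997 in FBS and 10753 in SFS. As deposited, they moved from each stage to the next in the direction of the ALFIN-LIKE sum. After division by actin, the sum rose between EFS and FBS, from 135 to 179, while these markers still fell. Floral organ identity genes were lower at each later stage (1382, 1312, 1032, 944 and 714, YA to SFS). They thus moved against the deposited sum from YA to VCA and from FBS to SFS. The part of either marker set in the sum was not tested. Without replicates it cannot be said which neighbours in the order of the ALFIN-LIKE sum differ beyond the spread between plants. The log2 ratio of the sum, on the log2(FPKM + 0.1) scale, was 0.17 for VCA over YA, -0.64 for EFS over VCA, -0.13 for FBS over EFS and 0.11 for SFS over FBS. The step between VCA and EFS was the widest, and EFS also lay below VCA when the libraries were rescaled. Division by total FPKM gave -0.60 for it, division by the median ratio of each library to the geometric mean of the 5 gave -0.42, and division by summed actin FPKM gave -0.81.

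The level of the senescing flower depends on the scale. As deposited, the log2 ratio of the sum for SFS over YA was -0.49, and -0.03 with the median-ratio scaling, which adds 0.46 to every ratio of this pair. After division by actin the ratio was 0.47, with the sum highest in SFS at 292, followed by 236 in VCA. Actin itself was lower in SFS, where its 24 unigenes summed to an FPKM of 639, against 1244 in YA. The scale also decides for the single unigenes whether SFS lay above or below YA. As deposited, SFS was below YA in 4 of 4 closely matched unigenes, with log2 ratios between -1.09 and -0.15. Lower values in SFS were common in the whole table, where the median log2 ratio of this pair was -0.78 over 69437 unigenes. With the median-ratio scaling Unigene14364 was above YA in SFS, at a log2 ratio of 0.30, and Unigene27263 was level, at 0.0046. Division by actin placed SFS above YA in all of the 4 but Unigene30805, which then had a log2 ratio of -0.14.

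**Figure D2:**
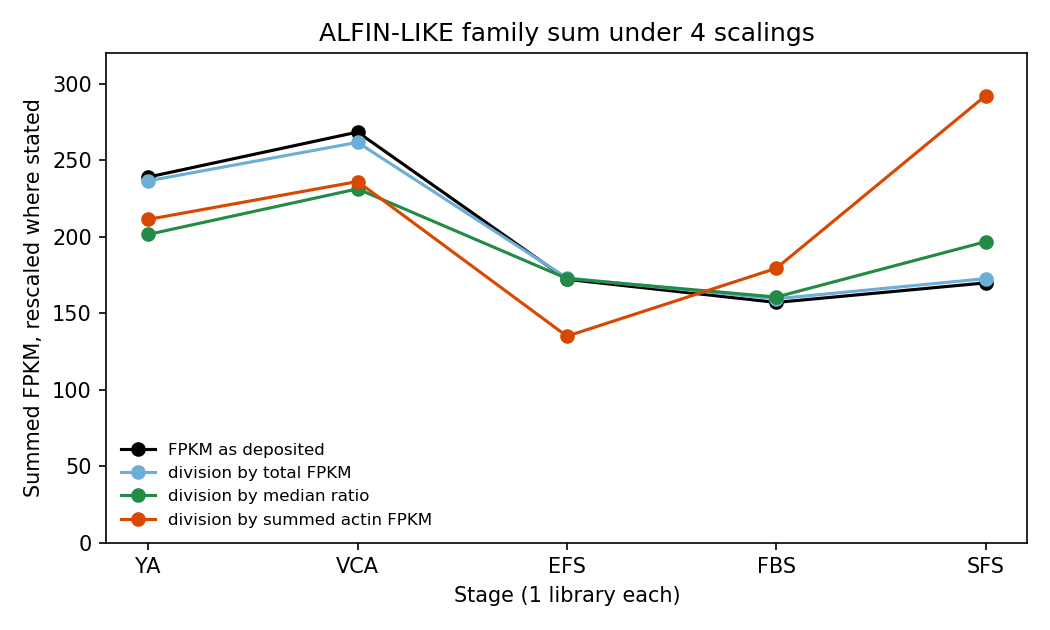
Summed FPKM of the 13 ALFIN-LIKE unigenes (vertical axis) in the libraries YA to SFS (horizontal axis), as deposited and after 3 ways of rescaling, 1 library per stage. VCA lies above EFS in all 4 lines, while SFS lies below YA as deposited (169.75 against 239) and above it after division by summed actin FPKM (292 against 211).

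None of the 4 closely matched unigenes differed 2-fold or more between consecutive stages, in 0 of 16 ratios. Ratios were taken as the later over the earlier stage, over unigenes that reached 1 FPKM in the earlier or the later library, and 7 of the 13 members passed this filter in each pair, these 4 and the 3 contigs of CL21157. For VCA over YA, 2 of the 7 were 2-fold or more higher and 1 was 2-fold or more lower, and all 3 were CL21157 contigs. Over all 72356 unigenes of this pair 30.0% were higher and 31.8% lower. For EFS over VCA, 0 of 7 were higher and 1 was lower, with 28.0% and 38.3% of all 68148 unigenes. For FBS over EFS, 1 was higher and 1 lower, with 33.0% and 32.5% of all 65397 unigenes. For SFS over FBS, 0 were higher and 0 lower, with 29.1% and 35.8% of all 63184 unigenes. These shares over all unigenes include many of low FPKM. Among Swiss-Prot-named unigenes that reached 10 FPKM in the earlier or the later library, the shares were smaller, with 15.4% higher for VCA over YA, and 18.3% higher and 25.9% lower for EFS over VCA.

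The median log2 ratio of the 7 members was 0.36 for VCA over YA, with -0.05 over all unigenes. It was -0.55 for EFS over VCA, with -0.37 over all. For the later pairs it was -0.08 and 0.04, with 0.02 and -0.22 over all. In EFS over VCA, the ratios of the 4 closely matched unigenes lay between -0.79 for Unigene27250 and -0.53 for Unigene30805, so that each was lower in EFS, but by less than 2-fold. In VCA over YA, they were between 0.28 and 0.38 for the 3 named after ALFIN-LIKE 2 and 5, and -0.32 for Unigene30805.

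Between the ends of the series, SFS over YA, 1 of the 7 members was at least 2-fold higher and 2 at least 2-fold lower, with 29.1% and 46.8% of all 69437 unigenes. The 2 lower ones were Unigene30805, with 17.5 in SFS against 37.4 in YA and a log2 ratio of -1.09, and CL21157.Contig1, with a log2 ratio of -1.31. Neither stayed past 2-fold after division by the median ratio, where the values were -0.64 and -0.85.

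**Figure D3:**
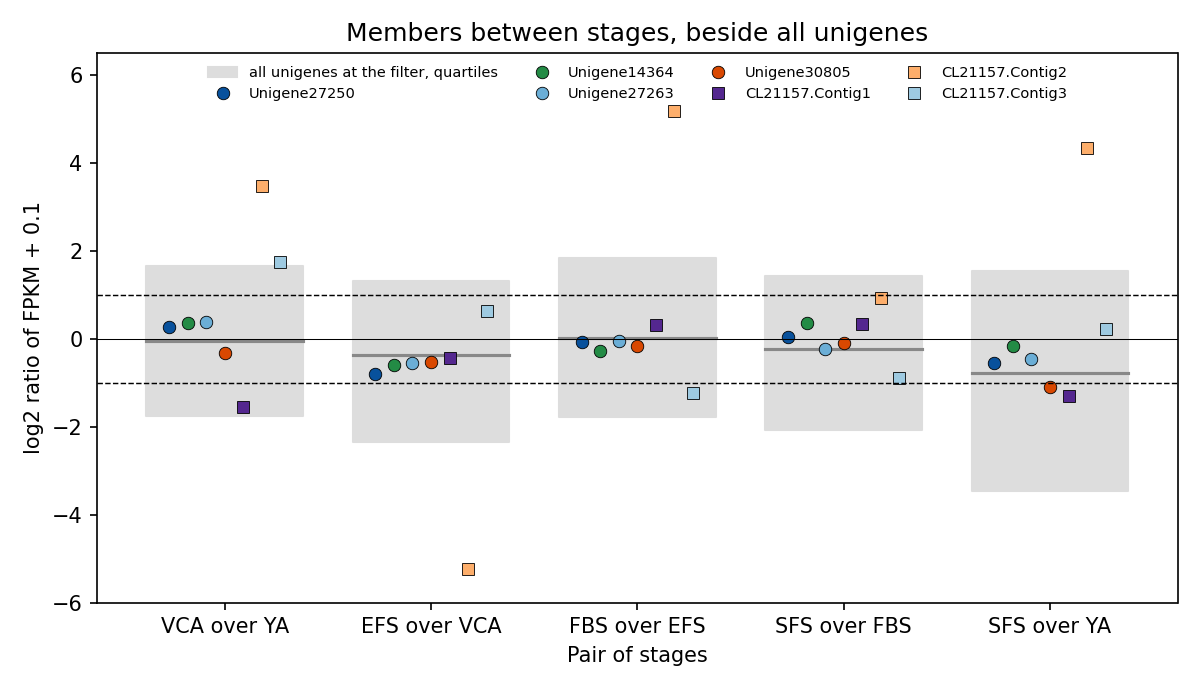
Log2 ratio of FPKM + 0.1, later over earlier stage (vertical axis), for the 7 members that reached 1 FPKM in the pair, in 4 consecutive pairs and in SFS over YA (horizontal axis). Circles are the closely matched unigenes and squares the contigs of CL21157, grey boxes span the quartiles of all unigenes with their median as a line, and dashed lines mark 2-fold. The circles stay within 2-fold in each consecutive pair, and the 2 points of CL21157.Contig2 farthest from 0 are ratios to a listed 0 in EFS.

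The BAH unigenes of cluster CL21157 behaved differently as single contigs and as a sum. CL21157.Contig1 had an FPKM of 22.2 in YA and 7.54 in VCA, then 5.57 in EFS, 6.98 in FBS and 8.89 in SFS. CL21157.Contig3 had 1.28 in YA and 4.54 in VCA, then 7.04 in EFS, 2.92 in FBS and 1.52 in SFS. CL21157.Contig2 had 0.24 in YA and 3.68 in VCA, then a listed 0 in EFS, 3.54 in FBS and 6.79 in SFS. Contig1 was highest in the young bud, Contig3 in the early flower and Contig2 in the senescing flower.

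Their sum was 23.7 in YA and 15.8 in VCA, then 12.6 in EFS, 13.4 in FBS and 17.2 in SFS, and it differed 2-fold or more in 0 of the 5 pairs. Contig1 held 93.6% of this sum in YA and between 44.2% and 51.9% in the other stages. The share of Contig3 was 5.40% in YA, 55.8% in EFS and 8.84% in SFS, and that of Contig2 was 1.01% in YA and 39.5% in SFS. Contigs of 1 cluster are similar sequences, and RSEM splits reads that fit more than 1 of them, so the FPKM of each contig is less certain than the sum. The part of this splitting in the shares was not tested. All the 2-fold calls between consecutive stages were calls on these contigs.

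**Figure D4:**
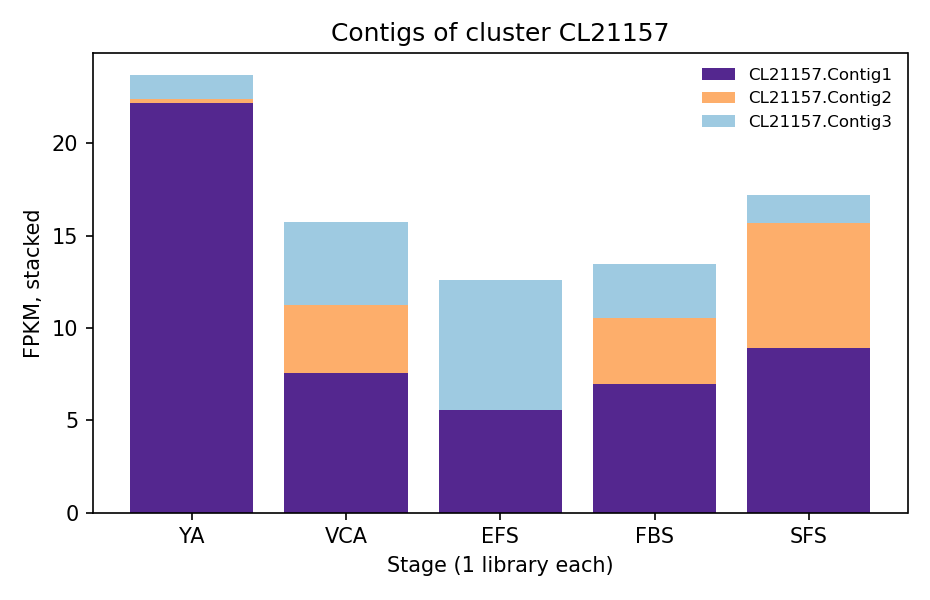
FPKM of the 3 contigs of cluster CL21157, stacked (vertical axis), in the libraries YA to SFS (horizontal axis), 1 library per stage. Contig1 makes up 22.2 of the 23.7 in YA, Contig2 is absent from the bar of EFS where it is listed at 0, and the full bars lie between 12.6 in EFS and 23.7 in YA.

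In FBD, another set of unigenes carried the ALFIN-LIKE names. Unigene154308, named after ALFIN-LIKE 2, had an FPKM of 158 in FBD, against 0.17 in YA and in VCA and a listed 0 in EFS, FBS and SFS. It lay above 98.9% of the 53601 unigenes that reached 1 FPKM in FBD. The contigs of CL6028, named after ALFIN-LIKE 4, had an FPKM in FBD of 93.8 (Contig1), 100.4 (Contig2) and 26.9 (Contig6), and at most 0.17 in any other library. The BAH unigene Unigene123085 had 18.9 in FBD and was listed at 0 in each of the other 5 libraries. These 5 unigenes were placed on the FBD side by a 20-fold difference from the mean of the other 5 stages.

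The other direction held for 7 members. The 4 closely matched unigenes of the later stages had an FPKM in FBD of 0.26 (Unigene27250), 0.51 (Unigene14364), 0.25 (Unigene27263) and 0.11 (Unigene30805), which is between 0.349% and 0.904% of their means over the other 5 stages. CL21157.Contig1 had 0.25 in FBD, and Contig2 and Contig3 were listed at 0. Of the 13 members, 5 were thus at least 20-fold above that mean in FBD, 7 at least 20-fold below it, and Unigene33300 was below the limit on both sides. The whole table was divided in the same way, as given above, so this split is no property of the ALFIN-LIKE names. What sets the FBD library apart was not tested, and values of FBD are not given here as changes between stages.

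By name, both sets held ALFIN-LIKE 2, ALFIN-LIKE 4 and BAH unigenes, in different proportions. Of the summed FPKM of the closely matched unigenes in FBD, 58.2% was named after ALFIN-LIKE 4 and 41.7% after ALFIN-LIKE 2, while ALFIN-LIKE 5 held 0.134%. Unigene122072, whose Nt match is an ALFIN-LIKE 5, had an FPKM of 16.2 in FBD. Without a Swiss-Prot name, it is not counted in these shares. In the other 5 stages ALFIN-LIKE 2 held between 53.4% and 58.1%, ALFIN-LIKE 5 between 27.8% and 35.1%, and ALFIN-LIKE 4 between 11.5% and 17.5%. The sum of all 13 unigenes was 399 in FBD and averaged 201 over the other 5 stages. The names are those of the best Swiss-Prot match in another species. In KOG the ALFIN-LIKE 4 and 5 unigenes were matched to the same Arabidopsis gene. In Nr the ALFIN-LIKE 2 unigenes matched an ALFIN-LIKE 1 or ALFIN-LIKE 1-like protein best.

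**Figure D5:**
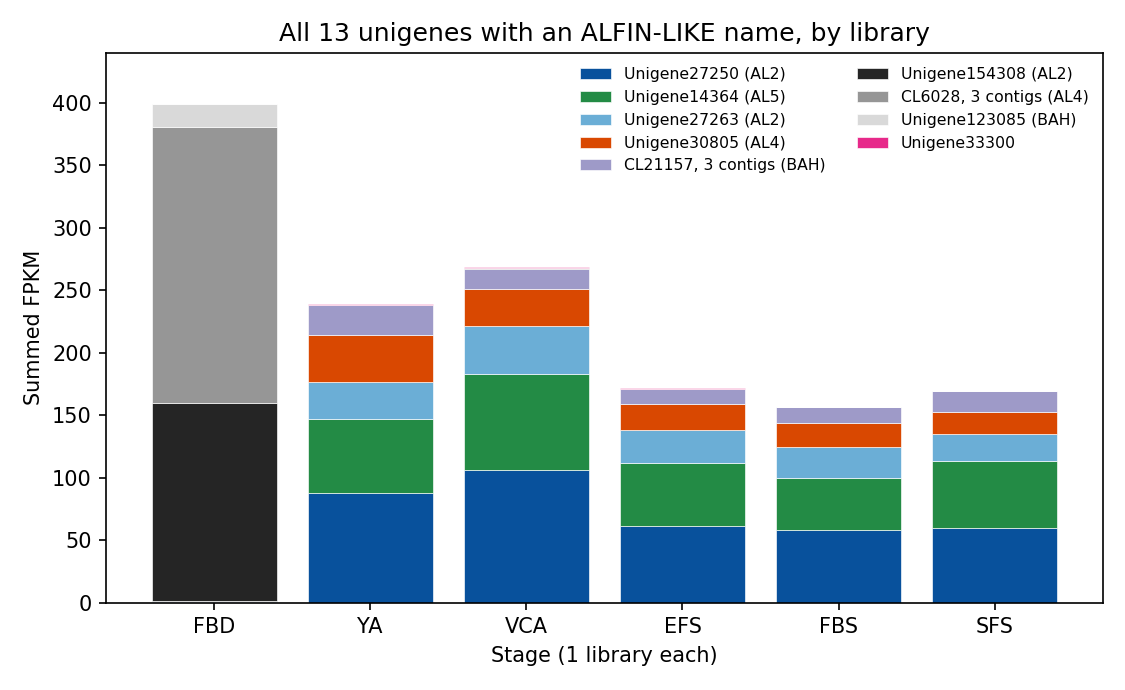
Summed FPKM of the 13 unigenes with an ALFIN-LIKE name (vertical axis) in each of the 6 libraries (horizontal axis), stacked by unigene or contig cluster. AL stands for ALFIN-LIKE and BAH marks the weakly matched unigenes that KOG names BAH domain proteins. The bar of FBD, 399 in all, is made of Unigene154308, CL6028 and Unigene123085, which are at or near 0 in the other 5 libraries, whose bars lie between 157 in FBS and 268 in VCA.

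The unigenes whose pattern was most like that of the family sum were sought among 4124 other Swiss-Prot-named unigenes that reached 10 FPKM in each of the 5 stages. The measure was the root mean square difference of log2(FPKM + 0.1) over the 5 stages after each profile was centred on its mean, and its median over the 4124 was 0.54. The nearest were CL6377.Contig1 (the Rac-like GTPase ARAC3, 0.049) and CL27693.Contig1 (the pentatricopeptide repeat protein At2g31400, known as GUN1 of chloroplast signalling, 0.052). They were followed by CL5105.Contig3 (the corepressor LEUNIG, which acts in floral organ identity in Arabidopsis, 0.065), CL5379.Contig2 (Bax inhibitor 1, 0.066) and CL19229.Contig1 (salt tolerance-like protein At1g78600, 0.071). CL6377.Contig1 had an FPKM of 50.4 in YA and 56.8 in VCA, then 33.9 in EFS, 31.5 in FBS and 36.5 in SFS. Like the family sum it was highest in VCA, then in YA, and lowest in FBS. Of the members, Unigene27250 was nearest to the sum it is part of, at 0.059, and CL21157.Contig3 was far from it, at 0.96. Over the 5 stages, 25 of the 4124 unigenes lay nearer to the sum than 0.1.

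Genes that write, erase or read the same histone mark were counted by lists of Swiss-Prot names, and their 2-fold calls are set beside those of all unigenes. Names of ATX and ATXR methyltransferases, a group with enzymes that place methyl groups on lysine 4, were carried by 103 unigenes. Of these, 26 are named ATXR5 or ATXR6, enzymes known for another lysine. The list also held ATXR2 (3 unigenes) and ATXR4 (5 unigenes), and which lysine these act on was not checked here. For SFS over YA, 13 of 63 at the filter were higher by at least 2-fold (20.6%) and 33 lower (52.4%), with 29.1% and 46.8% of all unigenes. Without ATXR5 and ATXR6, left out after the names were seen, 11 of 43 were higher (25.6%) and 18 lower (41.9%). CL7923.Contig2 (ATXR3, a main lysine 4 methyltransferase of Arabidopsis) had an FPKM of 16.2 in YA and 17.5 in VCA, then 12.1 in EFS, 13.1 in FBS and 11.5 in SFS. As deposited, CL7923.Contig2 was highest in VCA, like 3 of the 4 closely matched ALFIN-LIKE unigenes and like 25.8% of the 3953 unigenes compared above. CL30899.Contig4 (ATX4) had the highest mean of the list and was uneven, with 47.4 in YA and 0.32 in VCA, then a listed 0 in EFS, 12.7 in FBS and 110.03 in SFS.

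Lysine 4 demethylases (28 unigenes of JMJ14 and of the LSD1 homologs) showed 0 higher and 9 lower (50%) of 18 for SFS over YA. Of all unigenes, 29.1% were higher and 46.8% lower, a share lower close to that of the list. JMJ14, which represses the flowering genes of Arabidopsis, led the list, with CL28588.Contig1 at 9.29 in YA and 12.7 in VCA, then 8.69 in EFS, 8.16 in FBS and 6.13 in SFS, and CL8224.Contig3 highest in EFS at 14.4. The other PHD readers by name were 8 unigenes of ING1 and ING2, and 2 of them reached an FPKM of 1 in the 5 stages. Unigene27239 (ING2) had 10.2 in YA and 12.5 in VCA, then 7.15 in EFS, 5.05 in FBS and 3.70 in SFS. CL22767.Contig2 (ING1) had between 4.65 in EFS and 7.93 in SFS. From YA to SFS, the 4 closely matched ALFIN-LIKE unigenes of these stages thus stood at higher FPKM than these other readers. The lowest of the 4, Unigene30805, was at 17.5 in SFS. The weakly matched members are not part of this comparison.

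VIN3 and VIN3-like proteins, the PHD family of vernalization, had 20 unigenes. For SFS over YA, 1 of 10 was higher and 6 were lower, with 29.1% and 46.8% of all unigenes, and a median log2 ratio of -2.53 over the 10 and -0.78 over all unigenes. CL548.Contig1 (VIN3-like protein 2) was nearly level, between 12.98 in FBS and 17.3 in YA, while CL2189.Contig2 (VIN3-like protein 1) had 15.5 in EFS and 2.14 in SFS. The RING names of Polycomb repressive complex 1 were carried by 58 unigenes, but 30 of these bore the name RING1 of cotton, a ubiquitin ligase not known as a Polycomb protein, and both leading ones, Unigene30757 and Unigene8176, were among them. Their highest FPKM were 89.0 in FBS and 71.4 in SFS. Another 17 were named RING1-like of Arabidopsis, which is not one of the Polycomb RING proteins either. For SFS over YA, 6 of 25 were higher and 6 lower, with 29.1% and 46.8% of all unigenes. The names RING1a, RING1b and DRIP2 alone, a choice made after the names were seen, were carried by 11 unigenes, of which 4 passed the filter in this pair and 0 were higher and 2 lower. None of these lists was tested, and division by actin would shift each ratio of SFS over YA by 0.96.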

How the data were processed

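The authors isolated total RNA of floral organs with TRIzol, sequenced it on the Illumina platform, assembled the reads with Trinity and calculated FPKM with RSEM. The deposited FPKM have 2 decimals, are already corrected by the authors for length and mapped reads, and come without read counts. Tool versions are not stated. In the table used here 2 lines were empty. Columns were matched to libraries by stage name, and none was left unmatched.

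Members, lists and settings were chosen with earlier results of these data known. Members are rows with ALFIN-LIKE in the Swiss-Prot cell. A close match has an e-value at or under 1e-20. Ratios are log2(FPKM + 0.1) of the later minus the earlier stage, where 1 of the pair reached 1 FPKM, and are called at a log2 ratio of 1. They understate changes of low unigenes. Values by stage are given for members that reached 5 FPKM in any library or were in the study's list of factors found in the proteome, and in full or in part for the 2 unigenes with the highest mean of each list. The members in the study's list were Unigene27250, Unigene27263, CL6028.Contig6 and CL21157.Contig1. The median ratio rests on 40985 unigenes above 0 in all 5 stages. Steps were tested on simulated data. Python 3.11.15, numpy 2.4.6, pandas 2.3.3 and matplotlib 3.10.9 were used. The proteome and qPCR values were not analysed here.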

Additional observations from a re-analysis of the deposited data

How the results depend on the processing

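No paired analysis was possible because each stage has 1 library. Of 113 alternative values for the sums and counts, 90 kept their direction and their side of 2-fold or, for counts, stayed within 1.5 times. The list held 8 members at an e-value at or under 1e-20 (13 by name). Division by actin turned the log2 ratio of the sum to 0.41 for FBS over EFS and to 0.47 for SFS over YA. With contigs summed by cluster, 0 members were past 2-fold in any consecutive pair, and 0 higher and 1 lower for SFS over YA. At an FPKM of 5, 0 were higher for VCA over YA and for FBS over EFS and 0 lower for EFS over VCA. Without the low-value filter, 2 were lower for EFS over VCA and for FBS over EFS, 1 higher for SFS over FBS, and 5 lower for SFS over YA. Division by the median ratio gave 1 higher for SFS over FBS and 0 lower for SFS over YA. Division by actin gave 0 lower for FBS over EFS, 1 higher for SFS over FBS, and 2 higher and 0 lower for SFS over YA. These follow from fewer or more unigenes passing the filter, from summed contigs or from the shift of each ratio. The FBD side held 5 members under each limit tried, while the other side, with 7, held 6 at 50-fold and 5 at an FPKM of 5. Depth could not be read for single unigenes, and an FPKM near 0.1 rests on few reads.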

Other observations

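Outside the Swiss-Prot names, 2 more unigenes bear on the family. Unigene122072, whose Nt match is a PHD finger protein ALFIN-LIKE 5 of Morus notabilis (e-value 6.9e-58) and which has no Swiss-Prot name, had an FPKM of 16.2 in FBD and a listed 0 in the other 5 libraries. CL6028.Contig3, of the same cluster as the ALFIN-LIKE 4 contigs of FBD and without annotation, had 6.49 in FBD and a listed 0 elsewhere.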
